A study of Mus musculus with 10 samples.

Results

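Itaconate and other carboxylates are moved and made in macrophages by a small set of gene products, of which 6 were followed here in cultured mouse microglia, the resident macrophages of the brain. The genes were Slc13a3, Slc13a5, Acod1, Slc25a1, Slc25a10 and Slc25a11, matched by symbol in the GENCODE M21 annotation, and all 6 were found among the 55471 genes counted. Slc13a3 was selected on its higher read counts under the 3222401L13Rik gapmer in an earlier analysis of these libraries, so its difference between groups is given as a description with no test, and the other 5 genes were added for their place in the pathway. Total RNA was sequenced from 5 libraries of primary microglia that had received a gapmer against the long noncoding RNA 3222401L13Rik and from 5 libraries that had received a control gapmer. A gapmer is a short antisense oligonucleotide that directs RNase H to cut the RNA it binds. All cells were of wild-type genotype and were kept in DMEM with serum and antibiotics. The labels do not give the animals, their age, the duration or dose of the gapmer, or whether replicates came from separate cultures, so p-values measure the spread between these libraries, which may be technical.

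Acod1 encodes the mitochondrial enzyme that makes itaconate from cis-aconitate, an intermediate of the citric acid cycle, and in macrophages it is known to be induced by inflammatory signals. Itaconate inhibits succinate dehydrogenase and acts on the Nrf2 antioxidant response. Slc13a3 encodes a sodium-coupled plasma membrane transporter of dicarboxylates such as succinate, which is also reported to carry itaconate, and Slc13a5 encodes its relative for citrate. Slc25a1, Slc25a10 and Slc25a11 encode carriers of the inner mitochondrial membrane that exchange citrate, dicarboxylates and 2-oxoglutarate.

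Both groups of libraries held microglial transcripts, and they differed in depth and in background reads. Library totals were 5593627 to 6636082 reads in the knockdown-labelled libraries and 4321316 to 5639040 reads in the control libraries. 3222401L13Rik itself was counted at 22 to 38 reads in the knockdown-labelled libraries and at 28 to 34 reads in the control libraries (log2 fold change -0.17, SE 0.23, Benjamini-Hochberg adjusted p = 0.541 by edgeR's quasi-likelihood test). The background density described next predicted 33.8% of these reads in the knockdown-labelled and 61.4% in the control libraries. Above it the RNA averaged 0.535 ± 0.173 in the knockdown-labelled and 0.349 ± 0.121 in the control libraries, in counts per 1000000 reads (CPM) and kilobase (SD, n = 5 each), so that the direction turned. The targeted RNA thus was not detectably lower, against the label, and every direction here is that of the libraries labelled knockdown. Olfactory receptor genes, 1135 in number, which microglia are not known to use, gave a background read density, in reads per kilobase of exon for every 1000000 reads of the library. It averaged 0.257 ± 0.0674 in the knockdown-labelled and 0.599 ± 0.147 in the control libraries (SD, n = 5 each, p = 0.00794 by a permutation test, exact and two-sided, the lowest that 5 against 5 can give). The same density of each library, before scaling to 1000000 reads, times a gene's exon length gives the reads expected from background alone. Their share of a gene's reads is called its background share. Csf1r, the microglial growth factor receptor gene, averaged 720.0 CPM in the knockdown-labelled and 586.3 CPM in the control libraries. Not all microglial genes were read at such levels or moved that way: Tmem119 averaged 2.72 CPM in the knockdown-labelled and 2.84 CPM in the control libraries, and Siglech 1.52 and 5.17 CPM in the same order of groups (log2 fold change -1.75, background share 43.2%), both named after their values were seen. Scaling also mattered, since the median log2 fold change over all tested genes was -0.10 with the trimmed mean of M-values (TMM) scaling used here and -0.34 with low-background scaling. Low-background scaling takes its factors from genes under a 5% background share, is applied here to all tested genes, and was added with the data in view.

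The promoters of Slc13a3 and Acod1 are shown because the results turn on the transporter gene chosen for its rise and on the gene of the enzyme that makes itaconate. Each line gives the 210 bases that lie 250 to 41 bases before the RefSeq transcript start (GRCm38.p6, 5′ to 3′ on the strand of the gene). Capitals mark matches on either strand to 5 short motifs, the PU.1 core GGAAGT, the NF-kB motif GGAAATTCC, the E-box CACGTG, the antioxidant response motif TGACNNNGC and the AP-1 motif TGAGTCA, which do not overlap each other in these lines and were chosen after the sequences were seen. The Slc13a3 window lies at chr2:165473238-165473447 on the minus strand and the Acod1 window at chr14:103046762-103046971 on the plus strand.
Slc13a3: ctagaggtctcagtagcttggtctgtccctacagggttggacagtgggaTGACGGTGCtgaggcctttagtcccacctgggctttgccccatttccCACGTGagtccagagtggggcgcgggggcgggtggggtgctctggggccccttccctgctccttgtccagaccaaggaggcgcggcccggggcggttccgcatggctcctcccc
Acod1: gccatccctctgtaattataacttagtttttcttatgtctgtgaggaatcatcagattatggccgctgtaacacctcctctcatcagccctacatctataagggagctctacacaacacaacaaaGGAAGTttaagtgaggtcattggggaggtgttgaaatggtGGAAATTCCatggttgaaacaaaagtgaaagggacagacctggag

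The Slc13a3 window held 1 antioxidant response motif and 1 E-box, and the Acod1 window held 1 PU.1 core and 1 NF-kB motif. In the same window of 32851 RefSeq mouse promoter entries, 15.6% held the PU.1 core, 0.240% the NF-kB motif, 4.65% the E-box, 8.20% the antioxidant response motif and 3.81% the AP-1 motif. Of the other 4 members, Slc25a1 held 1 E-box and the others held none of the 5 motifs. A match is a description of these letters and not of binding.

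The first comparison asked at what level each gene was read. Per exon length, the mitochondrial carriers Slc25a11 and Slc25a1 and the transporter Slc13a3 were the highest of the 6 in both groups, Slc25a10 and Acod1 followed, and Slc13a5 was close to background. The unit is TMM-scaled CPM per kilobase of exon. In the knockdown-labelled libraries Slc25a11 averaged 26.0 ± 2.26, Slc25a1 23.1 ± 2.87 and Slc13a3 20.7 ± 2.93, and Slc25a10 averaged 10.7 ± 0.380, Acod1 4.12 ± 1.52 and Slc13a5 0.459 ± 0.210 (SD, n = 5). In the control libraries Slc25a11 averaged 22.5 ± 1.24, Slc25a1 20.05 ± 1.41 and Slc13a3 13.2 ± 2.10, and Slc25a10 averaged 8.97 ± 1.12, Acod1 4.32 ± 0.429 and Slc13a5 0.810 ± 0.387 (SD, n = 5). The order was the same in both groups.

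Neighbours in that order were separated to different degrees. The ranges of Slc25a11 and Slc25a1 overlapped in both groups, although Slc25a11 was the higher in all 5 libraries of each. Slc25a1 and Slc13a3 overlapped in the knockdown-labelled libraries, where Slc25a1 was the higher in 4 of 5, and did not overlap in the control libraries. All later neighbours had ranges that did not overlap. Among 19248 tested genes with a known length, the level of Slc25a11 stood at percentile 91.5 in the knockdown-labelled and 91.7 in the control libraries, and that of Slc13a3 at 88.9 and 85.1 in the same order of groups.

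**Figure D1:**
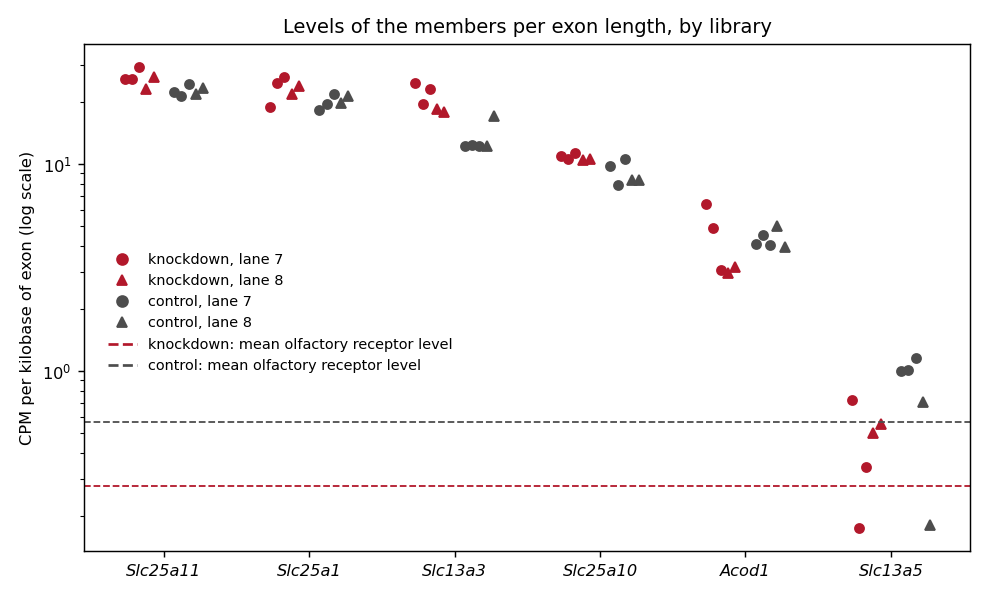
TMM-scaled CPM per kilobase of exon (log axis) for the 6 genes in each library, knockdown-labelled in red and control in grey, with lane 7 as circles and lane 8 as triangles. Dashed lines give the mean olfactory receptor level of each group on the same scale, 0.277 in the knockdown-labelled and 0.566 in the control libraries, and Slc13a5 alone lies around those lines.

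Slc13a3, the plasma membrane dicarboxylate transporter gene, was higher in every knockdown-labelled library than in any control library. The gene (ENSMUSG00000018459) lies on chromosome 2 at 165405028 to 165473230 on the minus strand (GRCm38), with 5215 bases of exon in 13 merged exons. Knockdown-labelled replicates 1 to 5 held 677, 591, 710, 544 and 547 reads, and control replicates 1 to 5 held 350, 310, 346, 346 and 495 reads. On the CPM scale the knockdown-labelled replicates 1 to 5 stood at 128, 102, 120, 96.2 and 93.2, and the control replicates at 63.7, 64.4, 63.7, 63.8 and 88.4. Control replicates 1 to 4 were nearly equal, control replicate 5 stood above them, and the groups did not overlap, as was so for 12.6% of tested genes with the knockdown-labelled libraries on the higher side.

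The mean of Slc13a3 was 108 ± 15.3 CPM in the knockdown-labelled and 68.8 ± 11.0 CPM in the control libraries (SD, n = 5 each), a fitted log2 fold change of 0.64 (SE 0.11), or 1.56-fold. Since the gene was chosen for this rise, no test is attached to it. Its size depended on the scaling and on the sequencing lane, which the file names give as lane 7 for replicates 1 to 3 and lane 8 for replicates 4 and 5 of both groups. The log2 fold change was 0.44 (SE 0.11) with library totals only and 0.40 (SE 0.12) with low-background scaling. In lane 7 alone it was 0.89 (SE 0.09), with means of 117 CPM in the knockdown-labelled and 63.9 CPM in the control libraries (n = 3 each). In lane 8 alone it was 0.34 (SE 0.12), with means of 94.7 CPM in the knockdown-labelled and 76.1 CPM in the control libraries (n = 2 each). Without control replicate 5 the log2 fold change over both lanes was 0.78 (SE 0.08).

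The background density predicted 1.33% of the Slc13a3 reads in the knockdown-labelled and 4.24% in the control libraries. With these reads taken off, the gene averaged 20.4 ± 2.93 in the knockdown-labelled and 12.6 ± 2.18 in the control libraries, in CPM per kilobase (SD, n = 5 each). No exon of another annotated gene overlapped its exons. Genes with a background share of 1 to 5%, the class that holds Slc13a3, had a median log2 fold change of 0.23 over 3875 genes, against 0.64 for Slc13a3. Since Slc13a3 was chosen for its rise, its place above that median follows from the choice and is no separate result.

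Astrocytes are known to express Slc13a3, and a culture of microglia can hold some of them. The 10 astrocyte markers summed to 168 to 204 CPM in the knockdown-labelled and to 176 to 196 CPM in the control libraries, and none of the 10 lacked reads over the libraries together. Of these sums the background density predicted means of 16.2 CPM in the knockdown-labelled and 33.1 CPM in the control libraries. Gfap, the astrocyte filament gene, averaged 65.4 CPM in the knockdown-labelled and 52.5 CPM in the control libraries, and the water channel gene Aqp4 averaged 33.6 and 27.8 CPM in the same order of groups. These were the 2 markers of the list that rose. Of its 9 tested genes 2 fell, the glutamate transporter genes Slc1a2 (-0.43) and Slc1a3 (-0.32), 5 were not called, and the median log2 fold change was -0.04. Background shares were 29.9% for Slc1a2 and 15.8% for Slc1a3, against 2.94% for Gfap and 8.38% for Aqp4. With library totals or low-background scaling 0 of the 9 rose and 4 fell. Their part in the Slc13a3 difference was not tested. In bulk RNA, fewer cells of a type and less RNA per cell cannot be told apart.

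**Figure D2:**
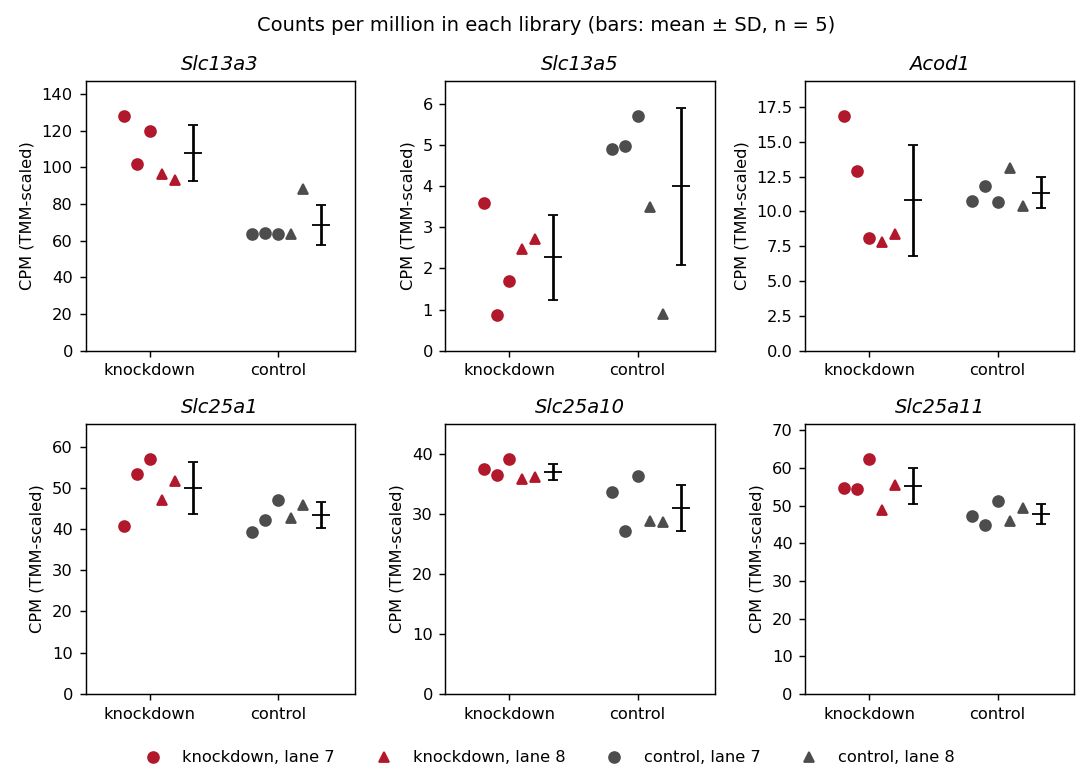
TMM-scaled CPM of each gene in each library, with a panel per gene, knockdown-labelled libraries in red on the left and control libraries in grey on the right, and black bars for the mean ± SD (n = 5). Slc13a3 is the panel in which the groups do not overlap, with 93.2 to 128 CPM in the knockdown-labelled and 63.7 to 88.4 CPM in the control libraries.

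Acod1, the gene of the enzyme that makes itaconate, did not pass the test. The gene (ENSMUSG00000022126) lies on chromosome 14 at 103046977 to 103056573 on the plus strand, with 2623 bases of exon in 5 merged exons. Knockdown-labelled replicates 1 to 5 held 89, 75, 48, 44 and 49 reads, and control replicates 1 to 5 held 59, 57, 58, 71 and 58 reads. On the CPM scale these were 16.8, 12.9, 8.10, 7.78 and 8.35 in the knockdown-labelled and 10.7, 11.8, 10.7, 13.1 and 10.4 in the control libraries. Knockdown-labelled replicates 3, 4 and 5 stood below every control library, and knockdown-labelled replicate 1 stood above every one.

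The means of Acod1 were 10.8 ± 3.98 CPM in the knockdown-labelled and 11.3 ± 1.13 CPM in the control libraries (SD, n = 5 each). The log2 fold change was -0.08 (SE 0.17, 95% interval -0.41 to 0.26, adjusted p = 0.714 by edgeR's quasi-likelihood test). That interval leaves room for a fall or a rise of modest size, so the test does not show that the gene was level. Its sign differed between lanes, with 0.20 (SE 0.20, adjusted p = 0.409) in lane 7 and -0.52 (SE 0.27, adjusted p = 0.231) in lane 8. Its background share was 6.75% in the knockdown-labelled and 12.9995% in the control libraries. Its level per exon length stood at percentile 60.5 in the knockdown-labelled and 62.2 in the control libraries among the tested genes.

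A ratio of reads within each library does not depend on the scaling. For every 100 reads of the 3 mitochondrial carriers together, Slc13a3 had 96.2, 70.5, 75.7, 73.02 and 65.0 reads in knockdown-labelled replicates 1 to 5 and 53.0, 56.4, 47.3, 54.3 and 71.2 reads in control replicates 1 to 5. The means were 76.1 ± 11.9 and 56.4 ± 8.94 in that order (SD, n = 5 each), a ratio of 1.35, and the groups overlapped through control replicate 5. Relative to the carriers, Slc13a3 was thus higher in the knockdown-labelled libraries on average, which is a description with no test. Acod1 had 7.69 ± 3.14 reads in the knockdown-labelled and 9.34 ± 1.37 reads in the control libraries for every 100 carrier reads (SD, n = 5 each, p = 0.310 by a permutation test, exact and two-sided).

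Of the 5 members that were not chosen for a rise, the 3 mitochondrial carriers rose, Slc13a5 fell and Acod1 was not called. Over all 19263 tested genes, 22.9% rose and 31.3% fell at the same threshold (adjusted p under 0.05), or 4418 and 6033 genes. All 6 members passed the filter on low counts.

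The mitochondrial carriers rose by similar, small amounts. Slc25a1, the citrate carrier gene (ENSMUSG00000003528, chromosome 16, 17925223 to 17928219, minus strand, 2164 bases of exon), stood at 40.8, 53.4, 56.9, 47.1 and 51.6 CPM in knockdown-labelled replicates 1 to 5 and at 39.3, 42.2, 46.9, 42.6 and 45.9 CPM in control replicates 1 to 5. Knockdown-labelled replicate 1 lay among the control libraries and the other 4 lay above all of them. Its means were 49.96 ± 6.21 CPM in the knockdown-labelled and 43.4 ± 3.06 CPM in the control libraries (SD, n = 5 each), with a log2 fold change of 0.21 (SE 0.08, adjusted p = 0.0252 by edgeR's quasi-likelihood test). The call was lost without control replicate 1 (0.18) or knockdown-labelled replicate 3 (0.17).

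Slc25a10, the gene of the carrier that exchanges malate and succinate for phosphate (ENSMUSG00000025792, chromosome 11, 120491840 to 120499187, plus strand, 3455 bases of exon), stood at 37.6, 36.5, 39.2, 35.9 and 36.3 CPM in knockdown-labelled replicates 1 to 5 and at 33.7, 27.2, 36.4, 28.9 and 28.8 CPM in control replicates 1 to 5. The knockdown-labelled libraries were close together, and control replicate 3 reached into their range. Its means were 37.1 ± 1.31 CPM in the knockdown-labelled and 31.0 ± 3.88 CPM in the control libraries (SD, n = 5 each), with a log2 fold change of 0.26 (SE 0.09, adjusted p = 0.0107 by edgeR's quasi-likelihood test).

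Slc25a11, the 2-oxoglutarate and malate carrier gene (ENSMUSG00000014606, chromosome 11, 70644196 to 70647479, minus strand, 2120 bases of exon), stood at 54.6, 54.4, 62.3, 48.8 and 55.5 CPM in knockdown-labelled replicates 1 to 5 and at 47.3, 44.9, 51.3, 45.9 and 49.5 CPM in control replicates 1 to 5. The groups overlapped through knockdown-labelled replicate 4. Its means were 55.1 ± 4.79 CPM in the knockdown-labelled and 47.8 ± 2.63 CPM in the control libraries (SD, n = 5 each), with a log2 fold change of 0.21 (SE 0.08, adjusted p = 0.0172 by edgeR's quasi-likelihood test). The call was lost without knockdown-labelled replicate 3 (0.18).

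These rises were of the size seen in genes of like background share, and they went with the scaling. Background shares were 1.91% for Slc25a1, 4.18% for Slc25a10 and 1.70% for Slc25a11, and 72.9% of the 3875 genes with a share of 1 to 5% rose. With low-background scaling, the log2 fold changes were -0.04 for Slc25a1, 0.01 for Slc25a10 and -0.04 for Slc25a11, and none of the 3 was called (adjusted p 0.679, 0.924 and 0.650, edgeR quasi-likelihood test). With that scaling 1.63% of tested genes rose and 44.6% fell, and Slc13a3 was at 0.40. With upper-quartile scaling or library totals the 3 carriers were not called either. On the TMM scale, levels above the predicted background, in CPM per kilobase, were compared by a permutation test, exact, two-sided and unadjusted. Slc25a10 averaged 10.5 ± 0.414 in the knockdown-labelled and 8.41 ± 1.17 in the control libraries (SD, n = 5 each, permutation p = 0.00794). Slc25a11 (permutation p = 0.0238) and Slc25a1 (permutation p = 0.0556) were also higher in the knockdown-labelled libraries. Within lanes, Slc25a1 was at 0.26 in lane 7 and 0.18 in lane 8, Slc25a10 at 0.23 and 0.34, and Slc25a11 at 0.28 and 0.15.

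Parts of 3 members' exons are shared with genes of the opposite strand, and the strand setting of the counting is not given in the sources used here. Rnf167, a ubiquitin ligase gene, shares 189 bases with Slc25a11, or 8.92% of the exon of Slc25a11, and averaged 25.8 CPM in the knockdown-labelled and 26.2 CPM in the control libraries. Gm11788 shares 228 bases with Slc25a10 and 1700051A21Rik shares 473 bases with Slc13a5. These last genes held at most 5 and 6 reads in a knockdown-labelled library and at most 7 and 11 reads in a control library.

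**Figure D3:**
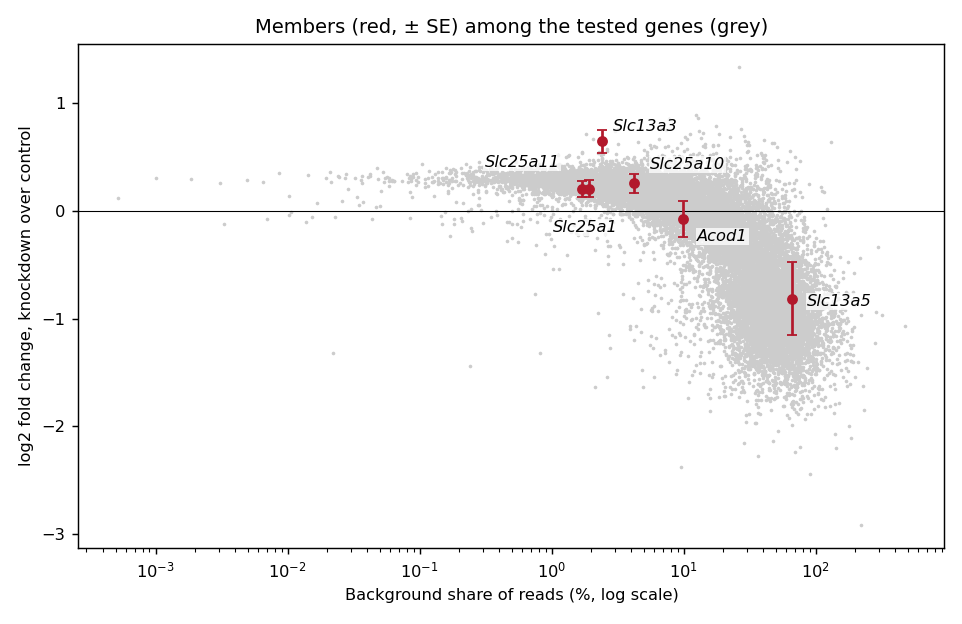
Log2 fold change (knockdown-labelled over control, TMM scaling) against background share in percent (log axis) for the tested genes in grey and the 6 members in red with ± SE. Slc25a1, Slc25a10 and Slc25a11 lie within the grey band at 0.21 to 0.26, Slc13a3 lies at its upper edge at 0.64, and Slc13a5 lies among genes of high background share at -0.82.

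Slc13a5, the citrate transporter gene known for its expression in liver and neurons, was near background. The gene (ENSMUSG00000020805) lies on chromosome 11 at 72241989 to 72267222 on the minus strand, with 4940 bases of exon in 12 merged exons. Knockdown-labelled replicates 1 to 5 held 19, 5, 10, 14 and 16 reads, and control replicates 1 to 5 held 27, 24, 31, 19 and 5 reads. The 3 lane 7 control libraries were the highest and control replicate 5 was as low as the lowest knockdown-labelled library.

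The means of Slc13a5 were 2.27 ± 1.04 CPM in the knockdown-labelled and 4.00 ± 1.91 CPM in the control libraries (SD, n = 5 each). Its log2 fold change was -0.82 (SE 0.34, 95% interval -1.50 to -0.13, adjusted p = 0.0388 by edgeR's quasi-likelihood test). The background density predicted 60.6% of its reads in the knockdown-labelled and 69.98% in the control libraries, and 71.1% of the 3775 tested genes with a share of 40 to 70% fell. Above the predicted background it averaged 0.182 ± 0.182 in the knockdown-labelled and 0.244 ± 0.335 in the control libraries, in CPM per kilobase (SD, n = 5 each, p = 0.746 by a permutation test, exact and two-sided). The fall was -1.34 (adjusted p = 0.00299) in lane 7 and did not hold in lane 8, where the value was 0.27 (adjusted p = 0.777). Leaving out control replicate 1 (-0.71), 2 (-0.72) or 3 (-0.64), or knockdown-labelled replicate 2 (-0.58) or 3 (-0.71), also ended the call, as did a fit with lane as a covariate (-0.76, adjusted p = 0.0568). The 10 neuron markers summed to 28.8 to 47.6 CPM in the knockdown-labelled and to 58.0 to 90.8 CPM in the control libraries, where the background density predicted means of 18.5 and 37.8 CPM, and their part in this difference was not tested.

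**Figure D4:**
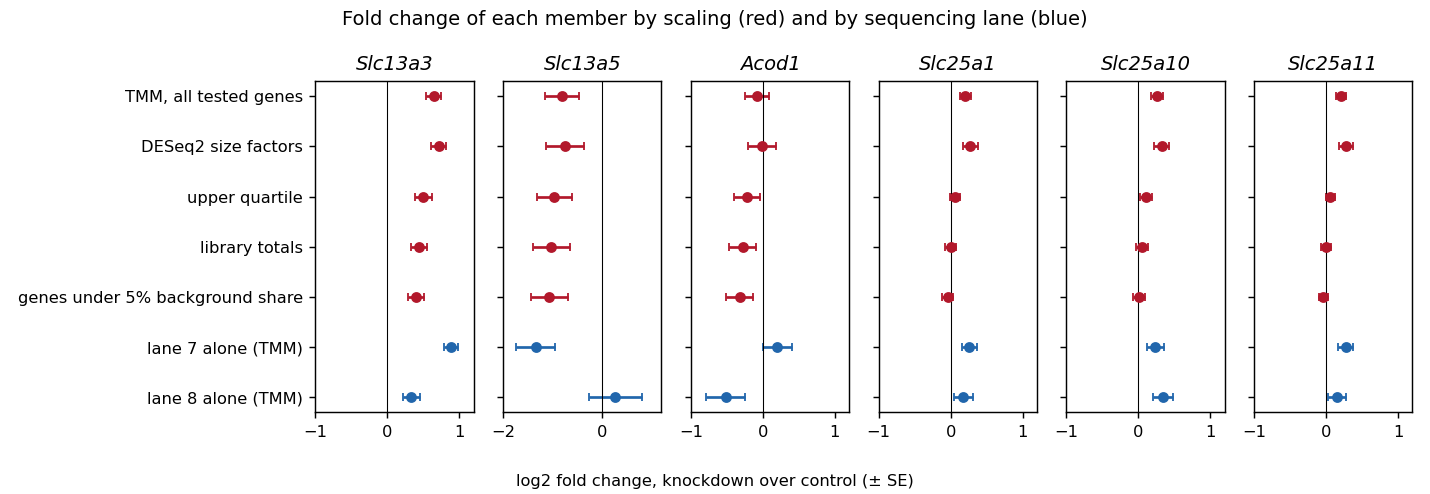
Log2 fold change (knockdown-labelled over control) of each member with ± SE under 5 scalings in red and in each lane alone in blue. Slc13a3 is above 0 in all 7 rows, from 0.34 to 0.89, and Slc25a1 and Slc25a11 reach about 0 with library totals and with low-background scaling.

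Relatives and partners of the 6 genes were described from lists, of which the counts follow, beside a median log2 fold change of -0.10 and rises of 22.9% and falls of 31.3% over all tested genes. The remaining SLC13 transporter genes were low, and 2 of 3 fell with none rising. The sulfate transporter genes Slc13a4 (2.68 ± 0.717 CPM in the knockdown-labelled and 6.82 ± 2.20 CPM in the control libraries, log2 fold change -1.34) and Slc13a1 (2.59 ± 0.668 and 6.22 ± 2.11 CPM, -1.25) had background shares of 40.5% and 74.3%. Slc13a2, a dicarboxylate transporter gene of kidney and gut, was at -0.59 (SE 0.30, adjusted p = 0.0936). Slc13a3 was thus the only SLC13 gene here with a background share under 5%.

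Of 13 other mitochondrial carrier genes 4 rose and 2 fell, and the 7 others were not called, around a median of 0.08. The phosphate carrier gene Slc25a3 rose (277 ± 10.3 CPM in the knockdown-labelled and 231 ± 16.7 CPM in the control libraries, log2 fold change 0.27), as did Ucp2 (409 ± 21.6 and 360.1 ± 13.6 CPM, 0.18), which encodes a carrier of C4 metabolites and protons, and the glutamate carrier gene Slc25a22 (0.26). The oxodicarboxylate carrier gene Slc25a21 fell (-1.29, background share 56.3%). Slc25a22 was no longer called when control replicate 3 or 4, or knockdown-labelled replicate 1, was left out. With library totals or low-background scaling 0 of the 13 rose and 2 fell, around medians of -0.13 and -0.17. With low-background scaling Slc25a3 was at 0.02 (adjusted p = 0.663) and Ucp2 turned to -0.06. Per kilobase of exon, Ucp2 (58.5 in the knockdown-labelled and 51.5 in the control libraries) and Slc25a3 (49.98 and 41.6) stood above Slc25a11, the highest of the 6 genes.

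The citric acid cycle supplies cis-aconitate to Acod1 and takes up succinate. Most of its genes rose with TMM scaling, as did most tested genes of like background share. Of 15 genes 14 rose, 0 fell and 1 was not called, with a median of 0.28. All 15 had background shares under 5%, and 746 of 853 tested genes with a share under 1% and 2824 of 3875 with a share of 1 to 5% rose as well. Sdha, the catalytic subunit gene of succinate dehydrogenase, the enzyme that itaconate inhibits, averaged 269 ± 9.25 CPM in the knockdown-labelled and 207 ± 15.5 CPM in the control libraries (SD, n = 5 each, log2 fold change 0.38, SE 0.06, adjusted p = 1.3e-06 by edgeR's quasi-likelihood test). The citrate synthase gene Cs (0.32), the isocitrate dehydrogenase gene Idh2 (0.32) and the succinate dehydrogenase subunit gene Sdhc (0.37) were next by p. With low-background scaling the median was 0.04, and of the 15 genes Sdha rose (0.13, adjusted p = 0.0023) and the other 14 were not called. Ogdh, named after its values were seen, was then at -0.10. With upper-quartile scaling 8 of the 15 genes rose, and with library totals 4 did.

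Genes around itaconate breakdown and cytosolic citrate were mixed. Of 5 genes for itaconate and succinyl-CoA handling 1 rose, 0 fell and 4 were not called, with a median of 0.17. The one that rose was Sucla2, a subunit gene of the ADP-forming succinyl-CoA synthetase (73.3 ± 6.10 CPM in the knockdown-labelled and 57.1 ± 3.41 CPM in the control libraries, 0.36, SE 0.07). The shared subunit gene Suclg1 was at 0.17, the GTP-forming subunit gene Suclg2 at -0.30 and the transferase gene Sugct at -0.44, each with an adjusted p above 0.05. Suclg2 was called as fallen with low-background scaling (-0.54, adjusted p = 0.0097), library totals (-0.50) and upper-quartile scaling (-0.44). Of 8 genes of cytosolic citrate use 4 rose and 1 fell, and the 3 others were not called, around a median of 0.23. The risen genes were the isocitrate dehydrogenase gene Idh1 (0.31), the malate dehydrogenase gene Mdh1 (0.31), the cytosolic aconitase gene Aco1 (0.26) and the ATP citrate lyase gene Acly (0.20). With library totals Acly turned to -0.01 and was not called. With low-background scaling none of these 5 risen genes was called, and of the cytosolic citrate list 3 fell, Acss2 (-0.53), Acaca (-0.36) and the fatty acid synthase gene Fasn (-0.15).

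Receptors and surface carriers of carboxylates were mostly low. Of 11 genes 10 were tested, of which 0 rose, 6 fell and 4 were not called, with a median of -0.37. Their median background share was 22.9%, and 49.2% of the 3886 tested genes with a share of 20 to 40% fell. Oxgr1, a receptor gene for 2-oxoglutarate and itaconate, fell (1.87 ± 0.904 CPM in the knockdown-labelled and 5.50 ± 1.01 CPM in the control libraries, -1.55, background share 42.9%). The glutamate transporter genes Slc1a2 (-0.43) and Slc1a1 (-0.92) and the organic anion transporter gene Slc22a6 (-0.88) had background shares of 29.9%, 94.4% and 35.6%. Slc22a6 lost its call without control replicate 2 and Slc1a1 without knockdown-labelled replicate 2. The succinate receptor gene Sucnr1 did not pass the filter, with 59 reads over all 10 libraries.

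Genes known to induce Acod1 or to respond to itaconate mostly rose with TMM scaling, as did most tested genes of low background share. Of 20 genes 18 were tested, of which 12 rose, 1 fell and 5 were not called, with a median of 0.25. Their median background share was 3.86%, and 72.9% of the 3875 tested genes with a share of 1 to 5% rose. Rab32, a small GTPase gene linked to delivery of itaconate to bacterial vacuoles in mouse macrophages, averaged 56.2 ± 2.05 CPM in the knockdown-labelled and 41.6 ± 3.43 CPM in the control libraries (SD, n = 5 each, log2 fold change 0.43, SE 0.08, adjusted p = 7.5e-06 by edgeR's quasi-likelihood test). The sulfiredoxin gene Srxn1 (0.37), the stress transcription factor gene Atf3 (0.30) and Nfe2l2, which encodes Nrf2 (0.29), followed. The fallen gene was the inducible nitric oxide synthase gene Nos2 (-0.63, background share 29.9%), named because it was the only one. With low-background scaling the median was 0.00, 1 gene rose (Rab32, 0.19, adjusted p = 0.0217) and 1 fell (Nos2, -0.88). In the fit limited to genes under a 5% background share 11 of the list were tested, of which 0 rose and 0 fell, around a median of 0.047. With upper-quartile scaling 8 of the 18 genes rose, and with library totals 5 did.

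**Figure D5:**
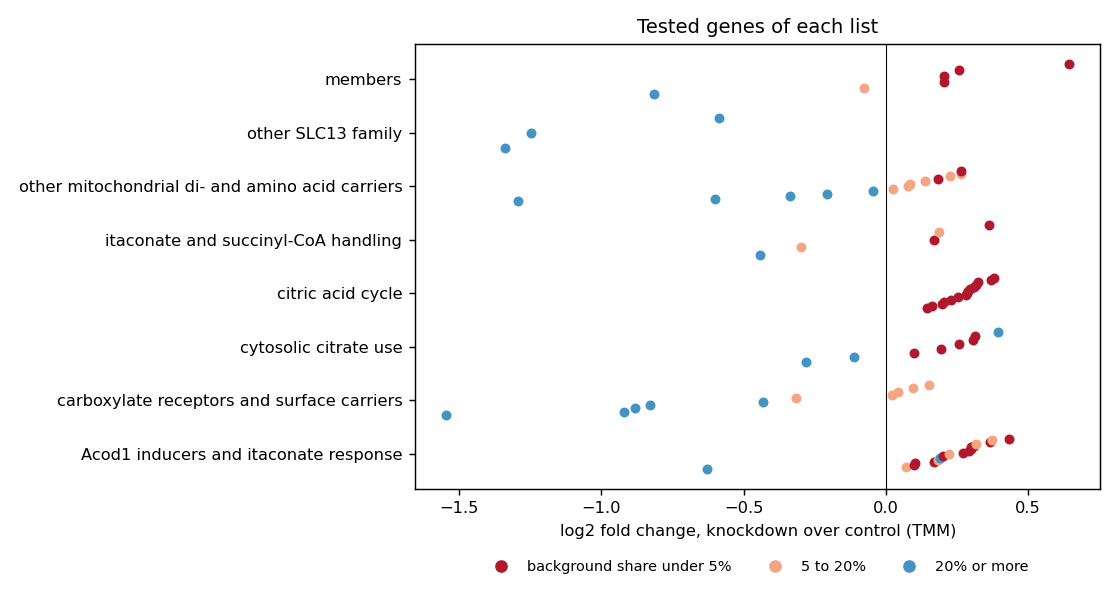
Log2 fold change (knockdown-labelled over control, TMM scaling) of each tested gene in the member list and the 7 further lists, coloured by background share. Genes with a share under 5% lie to the right of 0 and most genes with a share of 20% or more lie to the left of it, and Slc13a3 at 0.64 is the point farthest to the right.

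The genes whose levels across the 10 libraries ran closest to Slc13a3 were found by the root mean square difference of log2 CPM after each gene was centred on its own mean, among 12003 other genes that averaged 5 CPM or more. They were Ier3ip1, Ifi211, Serpinb9, Ntpcr and Rpl10a, at differences of 0.14 to 0.16, where the median gene was at 0.34. The centring kept the difference between groups, so genes close to Slc13a3 share its rise by the way they were found. Their group means are therefore a description and no separate result. Ifi211 is an interferon-inducible gene, and Serpinb9 encodes a granzyme B inhibitor. Ifi211 averaged 75.9 ± 6.85 CPM in the knockdown-labelled and 56.6 ± 5.33 CPM in the control libraries, and Ier3ip1 averaged 23.5 ± 1.91 and 17.4 ± 1.92 CPM in the same order of groups (SD, n = 5 each). Reads of Rpl10a, a ribosomal protein gene, may be split with processed copies. The genes closest to Acod1 were Atg10, Pde6b, Zbtb48, Gm47445 and Gorab, at 0.16 to 0.21, where the median gene was at 0.40, and all 5 were low, at 6.21 to 10.7 CPM in the knockdown-labelled and 6.76 to 11.2 CPM in the control libraries.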

How the data were processed

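Each of the 10 deposited files gives raw read counts by gene for a single library, as the authors counted them. The RNA went into a stranded total RNA kit (SMARTer Pico Input), per the labels' protocols. The submitters' processing notes name bcl2fastq for demultiplexing and the build GRCm38 (mm10). For the aligner, counter, strand setting and annotation, the sources used here give no name. Each file had 55563 entries, of which 92 were ERCC spike-ins, which were left out. Names and exon lengths came from GENCODE M21, matched for 55230 genes. No pair of libraries of 1 group agreed within counting noise (chi-square over its degrees of freedom, 1.76 to 4.47).

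Counts were filtered with filterByExpr, scaled with TMM and tested with edgeR 4.0.16 (R 4.3.3, robust quasi-likelihood test, no term but group). P-values had Benjamini-Hochberg adjustment over 19263 genes and a threshold of 0.05. Standard errors were the log2 fold change over the root of the F statistic. Background reads came from the olfactory receptor density of each library. On simulated counts of 19263 genes the test found 24% of genes changed 1.2-fold and 94% of those changed 1.5-fold, and called 8 of 19063 unchanged genes. Whether these rates hold for libraries that differ in background reads, or for genes read as low as Slc13a5, was not tested. In the 10 libraries themselves 54.3% of tested genes were called. Alternatives used DESeq2 1.42.0, limma-voom 3.58.1, other scalings and filters, lane, the replicate number, background subtraction and each library left out. Named genes were the members, up to 4 genes per list with the smallest p, and the 5 genes closest to Slc13a3 and Acod1. The members and lists were chosen with earlier results of these data known. Figures were drawn with matplotlib 3.10.9, and promoter letters are from RefSeq (GRCm38.p6), where all 6 members matched. A result that needs a withheld item is not reported here.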

Additional observations from a re-analysis of the deposited data

Results flagged for a closer look

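Slc13a3 in control replicate 5 stood at 88.4 CPM, far from the other 4 control libraries at 63.7 to 64.4 CPM, with a gap of 0.970 of the range of that group. The members' levels were examined in 12 groups of libraries, and chance marks about 1 in 20 groups by this measure. The same library held the lowest Slc13a5 count of the control group, 5 reads. Why this library differed was not tested.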

How the results depend on the processing

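Rises and falls over all genes numbered 1685 and 7195 under upper-quartile scaling, 759 and 7888 under library totals, 4997 and 5055 with DESeq2, 2057 and 2239 with at least 5 CPM in 5 libraries, and 67 and 153 in lane 8 alone. They numbered 103 and 89 for genes under a 5% background share scaled on those genes alone, 34 and 48 with background also subtracted, 1306 and 1549 with background subtracted for all genes, and 4 and 16 with the background density as a covariate. Low-background scaling applied to all tested genes, chosen after seeing the data, gave 314 and 8598. Slc13a3 moved to 0.89 in lane 7, 0.34 in lane 8 and 0.40 with either use of low-background scaling. With background subtracted it was at 0.41 among genes under a 5% share and at 0.51 in the fit of all genes. With the covariate it was at 0.38 with a wide SE of 0.25, against an SE of 0.11 in the main fit. Slc25a1, Slc25a10 and Slc25a11 lost their calls in these fits, at 0.059, 0.11 and 0.060 with upper-quartile scaling, -0.00013, 0.052 and 0.00065 on library totals, 0.087, 0.14 and 0.088 with the stricter filter, 0.18, 0.34 and 0.15 in lane 8, -0.041, 0.011 and -0.040 with low-background scaling, -0.047, 0.036 and -0.050 with subtraction as well, 0.047, 0.13 and 0.043 with subtraction for all genes, and 0.0033, 0.11 and 0.0024 with the covariate. Slc25a10 was also not called in lane 7 (0.23). Slc13a5 lost its call with DESeq2 (-0.75), limma-voom (-0.70), no filter (-0.68) and lane as a covariate (-0.76), and turned to 0.27 in lane 8 and 0.30 with the background covariate. Acod1, not called in any of these fits, turned to 0.20 in lane 7, 0.053 with no filter and 0.23 with the covariate. Slc13a5 gave no value under the stricter filter or with background subtracted, nor did Slc13a5 and Acod1 in the fits limited to genes under a 5% share. The cause of these changes was not tested.

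With each library left out in turn, rises ran from 4032 to 5015 and falls from 4928 to 6967, Slc13a3 from 0.60 to 0.78, Slc13a5 from -1.05 to -0.58, Acod1 from -0.26 to 0.036 (0.029, 0.036 and 0.030 without knockdown-labelled replicates 3, 4 and 5), Slc25a1 from 0.17 to 0.29, Slc25a10 from 0.23 to 0.33 and Slc25a11 from 0.18 to 0.27. With the replicate number as a block there were 4405 rises and 5949 falls, Slc13a3 was at 0.65, Slc13a5 at -0.77, Acod1 at -0.11, Slc25a1 at 0.20, Slc25a10 at 0.26 and Slc25a11 at 0.20, and none of the members changed its call. Same-numbered libraries correlated at -0.21 to 0.16 in their deviations from the group means, and 1 of 5 knockdown-labelled libraries correlated best with its own number, so the numbers were not taken as pairs. Counts of 5 to 31 reads limit what can be said of Slc13a5, and 44 to 89 reads what can be said of Acod1.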
